A study of Mus musculus with 12 samples.

Results

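The 10 genes described here, Egr1, Egr2, Egr3, Nr4a1, Fos, Jun, Junb, Atf3, Ier2 and Myc, are immediate early genes, chosen by symbol from the 11762 genes of the deposited table, and all 10 were found and tested. These genes, and the gene lists used further on, were chosen with earlier results of these data known. Their counts and medians beside those of all genes are therefore a description only. Immediate early genes are transcribed within minutes of a stimulus without new protein synthesis. Kinase cascades such as ERK, JNK and p38 act on factors already bound at their promoters (SRF with its ETS partners, CREB, AP-1), and the short-lived transcripts are then removed by mRNA decay. In macrophages they are known as an early layer of the response to Toll-like receptor ligands and to uptake of particles. Most of their products are themselves transcription factors that act on later cytokine and growth genes.

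The cells were J774A.1, a mouse macrophage-like tumour line derived from the BALB/c strain, and poly(A)-selected RNA was read in 4 groups of 3 libraries each, called biological replicates in the series. The groups were cells given lipopolysaccharide together with microparticles (LPS+MP), cells given lipopolysaccharide alone (LPS), cells given microparticles alone (MP) and cells given neither (control, labelled untreated). LPS is a bacterial cell wall component sensed by Toll-like receptor 4. No source used here gives the time of exposure, the doses or the composition and size of the particles, so the interval between stimulus and harvest is unknown for these short-lived transcripts. All groups are 1 cell line, and p-values measure the spread between these cultures.

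Values are CPM (read counts brought to the same total in every library, with no division by gene length), and each column summed to between 998867 and 999273. Depth per library is otherwise unknown, apart from the step sizes given at the end. A change is given as log2 fold change ± SE on the log2(CPM + 1) scale, which understates changes of genes near 0 CPM. The words rose and fell are kept for changes of over 2-fold that also had an adjusted p under 0.05 (limma, 11745 genes tested), and such genes are called. Of 12 macrophage markers 11 were in the table, Csf1r, Cd68 and Spi1 among them, with a summed level of 5717 to 5945 CPM in LPS+MP, 7224 to 8307 in LPS, 6599 to 6975 in MP and 6401 to 7132 in control; Adgre1 was not among the listed genes. Of 7 fibroblast markers 1 was listed (Pdgfra, 6.90 to 7.97 CPM in LPS+MP, 7.67 to 10.8 in LPS, 1.99 to 2.35 in MP and 1.0 to 1.64 in control) and of 7 T cell markers 1 (Lck, 9.43 to 10.7, 9.11 to 11.5, 9.62 to 10.1 and 3.57 to 4.09 CPM in the same groups). The part of these genes in the results was not tested. Listed too were 2 of 7 neutrophil markers (1.30 to 6.04 CPM summed, over all libraries) and 1 of 5 dendritic cell markers (3.55 to 8.64 CPM), while no marker of B or epithelial cells was listed. LPS replicate 2 stood apart: 339 genes lay over 1 (log2) away from the mean of its group's other libraries, against 1 to 29 genes in the other 11 libraries. Member results that use the LPS group are therefore also given without it, and list counts where it changes them.

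The proximal promoters of 4 members are shown because the AP-1 genes and Nr4a1 moved unequally: Nr4a1, Fos and Junb rose with LPS while Jun was lower. Atf3, which also rose with LPS, is not printed. No link between motifs and these changes was tested. Each stretch is the 150 bases before the RefSeq start site (GRCm38.p6), 5′ to 3′ in the direction of the gene (+ or - gives the genome strand), and capitals mark every match in either direction to the motifs searched.
Nr4a1, chr15:101266696-101266845 (+): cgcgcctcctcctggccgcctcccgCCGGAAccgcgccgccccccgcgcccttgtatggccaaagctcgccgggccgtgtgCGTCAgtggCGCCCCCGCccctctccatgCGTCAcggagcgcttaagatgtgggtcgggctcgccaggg
Fos, chr12:85473740-85473889 (+): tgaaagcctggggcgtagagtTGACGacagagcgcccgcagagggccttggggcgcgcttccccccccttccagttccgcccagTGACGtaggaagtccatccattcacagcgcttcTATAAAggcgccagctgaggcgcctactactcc
Junb, chr8:84978749-84978898 (-): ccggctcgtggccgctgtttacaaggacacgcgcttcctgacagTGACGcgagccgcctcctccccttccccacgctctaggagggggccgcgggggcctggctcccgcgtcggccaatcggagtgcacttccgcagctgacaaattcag
Jun, chr4:95052223-95052372 (-): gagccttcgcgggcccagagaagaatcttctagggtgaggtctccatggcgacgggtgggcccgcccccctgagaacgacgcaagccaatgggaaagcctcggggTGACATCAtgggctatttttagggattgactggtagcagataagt

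The motifs searched over 250 bases before the start site were TGACGTCA (the full cyclic AMP response element, CRE), TGACG (its core, contained in the full element), TGANTCA (AP-1), TGACATCA (the AP-1 variant of the Jun promoter), GCGNGGGCG (EGR), CCGGAA (ETS core), TATAAA (the core promoter box of that name), and by name the CArG box of SRF and the NF-kB site. Egr1, on chromosome 18, was left out of the search, and no window was at hand for Egr3, Ier2 and Myc. Windows were searched for the other 6 members, Egr2, Nr4a1, Fos, Jun, Junb and Atf3. The CRE core stood in 4 of them, Nr4a1 (4 matches), Fos (2), Junb (1) and Atf3 (1), against 17.8% of all 32851 windows of this length. Jun alone of the 6 held TGACATCA, 45 to 38 bases before its start, found in 2.93% of all windows. Nr4a1 held an EGR match (4.7% of all windows) and an ETS core (12% of all windows). Fos held the TATA box 33 to 28 bases before its start (12.4% of all windows), and Egr2 and Fos each had an NF-kB match (5.93%). The full CRE (1.55%), the AP-1 site (6.75%) and the CArG box (1.47%) matched in none of the 6 windows, which says only that these letters do not occur there.

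**Figure D1:**
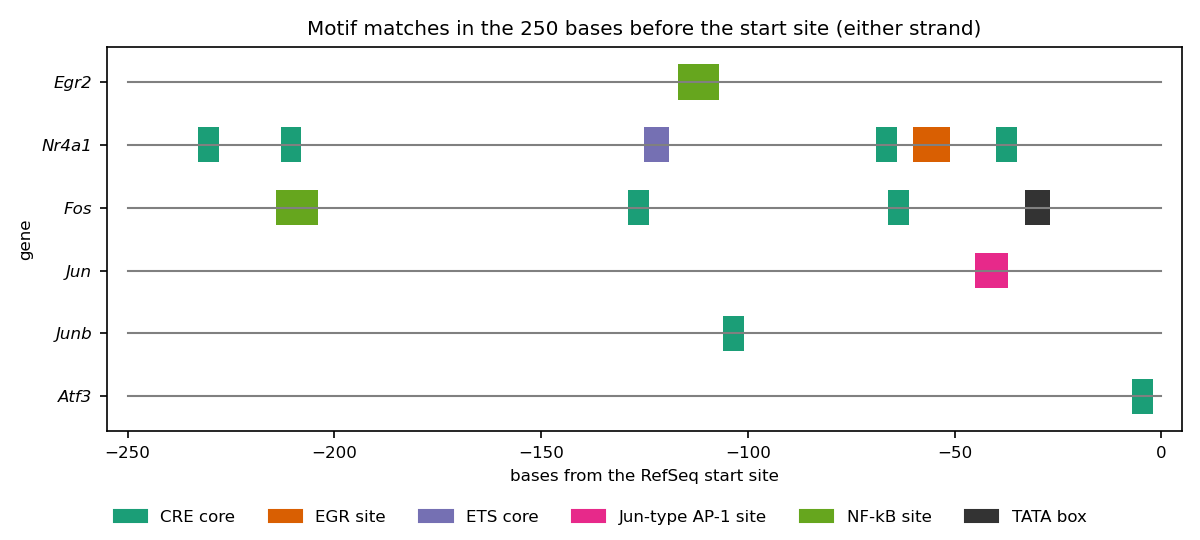
Motif matches on either strand in the 250 bases before the RefSeq start site (x axis, bases from the start site) of 6 genes (y axis), with box width to scale. Nr4a1 holds 4 CRE cores and Fos 2, while Jun holds the variant AP-1 site and no CRE core. Egr2, which rose with MP, holds no CRE core either, and a link between motifs and response was not tested.

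In MP against control, 4 members rose (Egr1, Egr2, Egr3 and Nr4a1) and 1 fell (Myc), against 1.82% and 1.85% of all genes tested. At an adjusted p under 0.05 without the fold threshold 8 of 10 passed, against 38.9% of all genes, and the median log2 fold change was 0.83 over the members and 0.02 over all genes. In LPS against control, 5 rose (Egr1, Nr4a1, Fos, Junb and Atf3) and 0 fell, against 8.3% and 8.05%; without the fold threshold 9 passed, against 62.1%. With LPS+MP against control 6 rose (those 5 and Egr2) and 1 fell (Myc), against 8.52% and 12.3%; 8 passed without the fold threshold, against 66.3%. Adding MP to LPS (LPS+MP against LPS) gave 2 that rose, Egr1 and Nr4a1, and 0 that fell, against 0.63% and 3.89% of all genes; 8 passed without the fold threshold, against 35.2%. Adding LPS to MP (LPS+MP against MP) gave 4 that rose, Egr1, Nr4a1, Junb and Atf3, and 1 that fell, Egr3, against 5.71% and 7.88%; 7 passed without the fold threshold, against 55.6%. Member medians in the last 4 of these comparisons were 0.90, 1.69, 0.63 and 0.54, beside all-gene medians of -0.08, -0.10, -0.05 and -0.14. The fold threshold set nearly all calls, since only 0 to 1 of the genes over 2-fold in these 5 comparisons missed the p threshold. The 3 comparisons with control share the control libraries, and in bulk RNA a change in every cell and a change in the share of responding cells cannot be told apart.

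**Figure D2:**
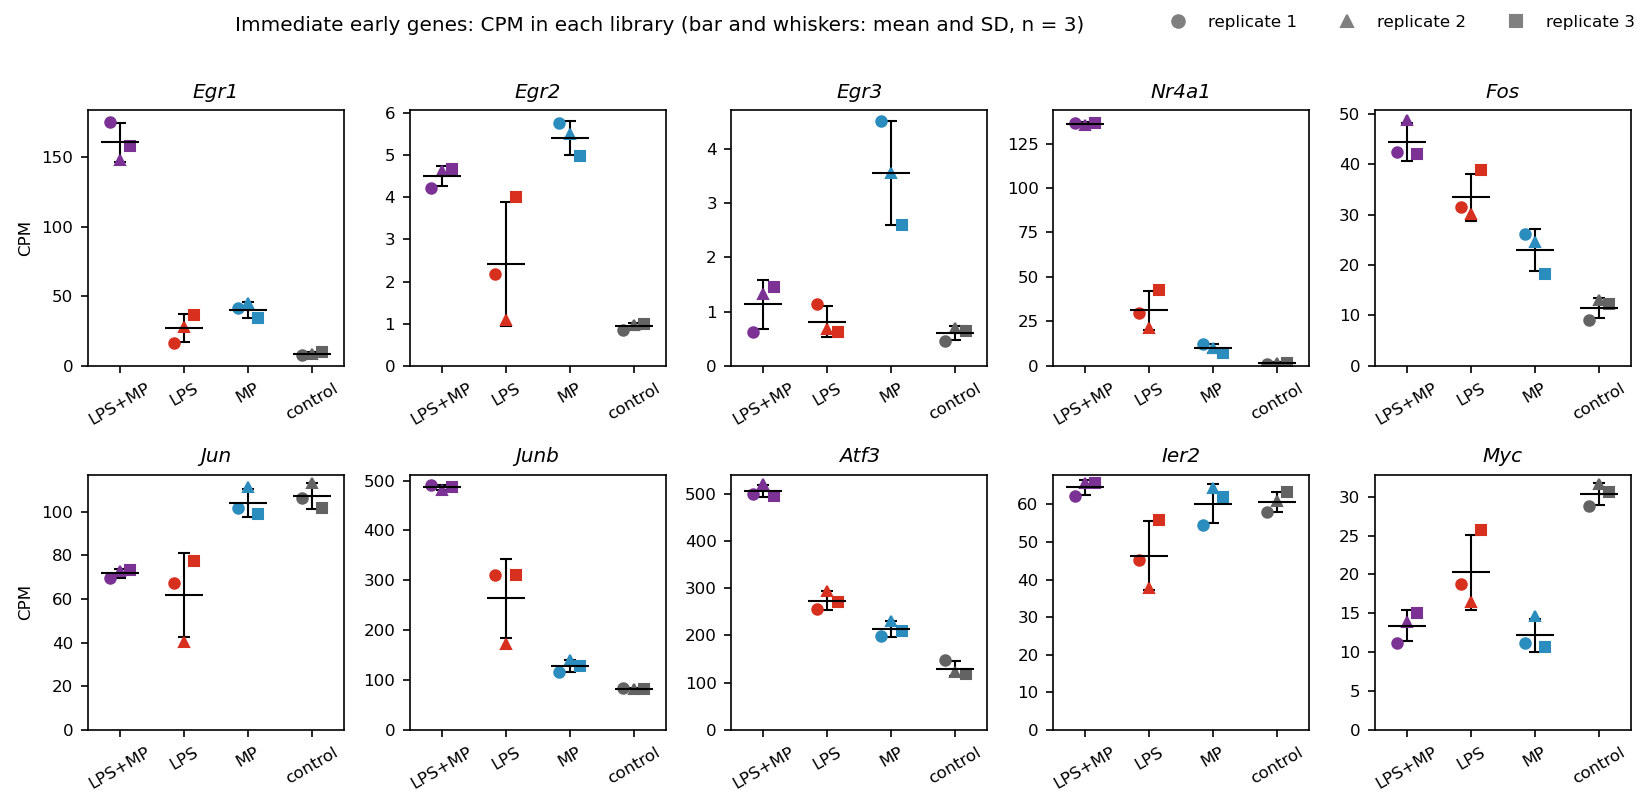
CPM (y axis, linear from 0) of the 10 genes in each of the 12 libraries, grouped as LPS+MP, LPS, MP and control; marker shape gives the replicate, and the bar and whiskers the mean and SD (n = 3). Nr4a1 stands at 136 to 137 CPM in LPS+MP and at 1.18 to 1.77 CPM in control, Egr3 is high in MP alone, and Myc is highest in control.

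The EGR factors, zinc finger proteins that bind GC-rich sites and that ERK signalling induces, did not move as 1 block. Egr1 (ENSMUSG00000038418, chromosome 18, 34859823 to 34864984) had 175, 148 and 158 CPM in the LPS+MP libraries, 16.5, 27.6 and 36.7 CPM in LPS, 41.6, 44.9 and 34.1 CPM in MP, and 7.55, 8.24 and 9.93 CPM in control. Every LPS+MP library stood above every other library and every control library below, while LPS and MP overlapped. Egr1 rose by 4.08 ± 0.20 in LPS+MP against control (adjusted p = 5.97e-11), which is 18.7 times the control mean. It rose by 2.10 ± 0.20 with MP (adjusted p = 1.42e-06) and by 1.48 ± 0.20 with LPS (adjusted p = 1.22e-05; 1.43 without LPS replicate 2). MP on top of LPS raised it by 2.60 ± 0.20 (adjusted p = 1.33e-07; 2.65 without that library), and LPS on top of MP by 1.98 ± 0.20 (adjusted p = 6.17e-07).

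Egr2 and Egr3, close relatives of Egr1 that act in myelination and in lymphocyte restraint among other settings, were low genes with their highest level in MP alone. Egr2 (ENSMUSG00000037868, chromosome 10, 67535475 to 67542188) had 4.23, 4.62 and 4.68 CPM in LPS+MP, 2.17, 1.08 and 4.01 CPM in LPS, 5.77, 5.50 and 4.97 CPM in MP, and 0.849, 0.964 and 0.99 CPM in control. The control libraries lay below all others, the LPS libraries were spread over a coefficient of variation of 61.3%, and the MP libraries lay just above LPS+MP. Egr2 rose by 1.73 ± 0.23 with MP (adjusted p = 3.15e-05) and by 1.51 ± 0.23 with LPS+MP against control (adjusted p = 2.91e-05). Under LPS alone its change was 0.73 ± 0.23 (adjusted p = 0.0116), short of the fold threshold, which it passed without LPS replicate 2 (1.04, adjusted p = 1.9e-05), while it came to 0.41 without LPS replicate 3 (adjusted p = 0.0631). LPS+MP against LPS gave 0.78 ± 0.23 (adjusted p = 0.0156), with 0.47 without LPS replicate 2, and passed 2-fold without LPS replicate 3 (1.10) and with quantile normalization (1.09). Fitted on the compared groups alone, the adjusted p of Egr2 was 0.0577 for LPS against control and 0.0788 for LPS+MP against LPS. LPS+MP against MP gave -0.22 ± 0.23 (95% interval -0.71 to 0.27, adjusted p = 0.440).

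Egr3 (ENSMUSG00000033730, chromosome 14, 70077445 to 70080157) had 0.619, 1.32 and 1.46 CPM in LPS+MP, 1.15, 0.674 and 0.618 CPM in LPS, 4.51, 3.56 and 2.60 CPM in MP, and 0.458, 0.702 and 0.641 CPM in control. The MP libraries stood above all 9 others, and LPS+MP, LPS and control overlapped. It rose by 1.49 ± 0.20 with MP (adjusted p = 4.50e-05), 5.92 times the control mean. In LPS against control the change was 0.17 ± 0.20 (95% interval -0.27 to 0.61, adjusted p = 0.486; 0.22 without LPS replicate 2), and in LPS+MP against control 0.39 ± 0.20 (95% interval -0.04 to 0.83, adjusted p = 0.102). Egr3 fell by 1.10 ± 0.20 in LPS+MP against MP (adjusted p = 0.000303). That call ended at -0.91 without LPS+MP replicate 1, at -0.95 without MP replicate 1 and, by a narrow margin, at -0.9992 with quantile normalization.

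Nr4a1 (ENSMUSG00000023034, chromosome 15, 101266846 to 101274792) encodes Nur77, an orphan nuclear receptor that restrains inflammatory genes in macrophages, and had the widest span of the 10. It had 137, 136 and 136 CPM in LPS+MP, 29.6, 21.2 and 42.5 CPM in LPS, 12.3, 9.94 and 7.17 CPM in MP, and 1.18, 1.77 and 1.67 CPM in control. The 4 groups did not overlap at any step of that order. The LPS+MP libraries differed by little, with a coefficient of variation of 0.481%, against 34.5% in LPS. Nr4a1 rose by 5.76 ± 0.21 in LPS+MP against control (adjusted p = 1.14e-12), 88.4 times the control mean, by 3.61 ± 0.21 with LPS (adjusted p = 5.32e-10; 3.85 without LPS replicate 2) and by 2.07 ± 0.21 with MP (adjusted p = 2.04e-06). Adding MP to LPS raised it by 2.15 ± 0.21 (adjusted p = 1.21e-06; 1.91 without LPS replicate 2), and adding LPS to MP by 3.70 ± 0.21 (adjusted p = 3.89e-10). Its relatives Nr4a2 and Nr4a3 are described with the other early genes.

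**Figure D3:**
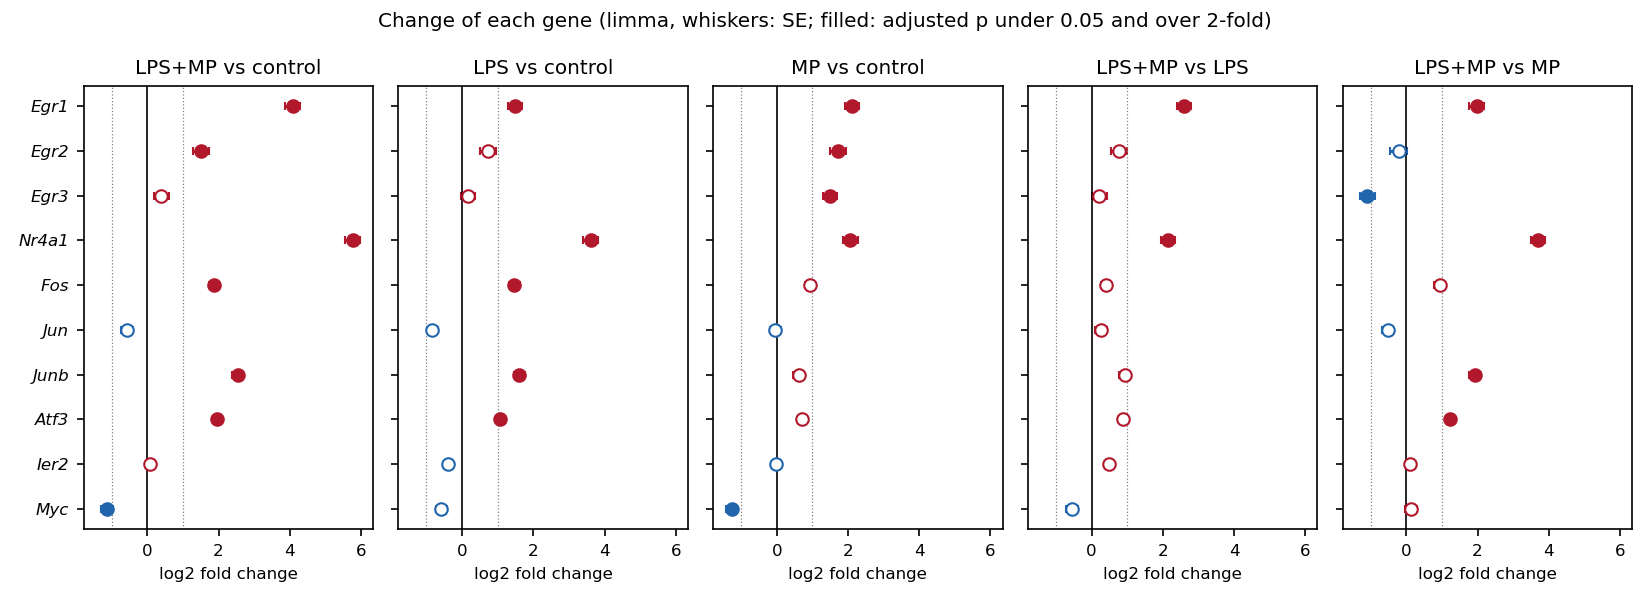
Log2 fold change (x axis, limma on log2(CPM + 1); whiskers are the SE) of each gene (y axis) in 5 comparisons, with filled points for genes past both thresholds and dotted lines at 2-fold. Egr1 and Nr4a1 are filled and to the right in all 5 panels, and Jun and Ier2 are open in all 5.

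AP-1 is a dimer of FOS, JUN and ATF family proteins, and the 4 members of these families took different courses. Fos (ENSMUSG00000021250, chromosome 12, 85473890 to 85477273), the partner that binds DNA only with a JUN protein, had 42.5, 48.8 and 42.1 CPM in LPS+MP, 31.5, 30.1 and 38.9 CPM in LPS, 26.1, 24.5 and 18.2 CPM in MP, and 9.14, 13.0 and 12.4 CPM in control. The groups stood in that order without overlap. Fos rose by 1.88 ± 0.15 in LPS+MP against control (adjusted p = 2.09e-08) and by 1.47 ± 0.15 with LPS (adjusted p = 4.91e-07; 1.54 without LPS replicate 2). With MP its change of 0.94 ± 0.15 (adjusted p = 0.000175) was short of 2-fold, as was that of LPS+MP against MP (0.94 ± 0.15, adjusted p = 6.92e-05). The MP value passed 2-fold without MP replicate 3 (1.09) or control replicate 2 (1.03), and the LPS+MP against MP value did so with quantile normalization (1.09), with median-ratio scaling (1.08) or without MP replicate 1 (1.04). LPS+MP against LPS gave 0.40 ± 0.15 (adjusted p = 0.0468), just under the p threshold. The adjusted p was over 0.05 without LPS+MP replicate 1 (0.0829), 2 (0.164) or 3 (0.0749). It was also over 0.05 without LPS replicate 1, and without LPS replicate 2 (0.33, adjusted p = 0.0716). The same held without MP replicate 2, control replicate 2 or control replicate 3. It held too with a pseudocount of 0.1 (0.0535), with a replicate block (0.0572) and without the variance trend (0.0656). In the other refits the adjusted p stayed under 0.05.

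Junb (ENSMUSG00000052837, chromosome 8, 84976909 to 84978748), a JUN protein often described as a weaker activator than c-Jun, had 491, 482 and 486 CPM in LPS+MP, 309.9, 173 and 310.6 CPM in LPS, 116, 141 and 129 CPM in MP, and 84.2, 82.3 and 83.0 CPM in control. The groups did not overlap, though LPS replicate 2 lay well below the other LPS libraries. Junb rose by 2.53 ± 0.16 in LPS+MP against control (adjusted p = 1.22e-09), by 1.61 ± 0.16 with LPS (adjusted p = 3.89e-07; 1.89 without LPS replicate 2) and by 1.92 ± 0.16 in LPS+MP against MP (adjusted p = 5.56e-08). With MP alone its change was 0.62 ± 0.16 (adjusted p = 0.00681). In LPS+MP against LPS it was 0.93 ± 0.16 (adjusted p = 0.000387), which came to 0.65 without LPS replicate 2 and passed 2-fold without LPS replicate 1 (1.07) or LPS replicate 3 (1.07).

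Atf3 (ENSMUSG00000026628, chromosome 1, 191170296 to 191183340), a stress-induced factor known to restrain Toll-like receptor cytokine genes, had 499, 519.7 and 496 CPM in LPS+MP, 255, 294 and 271 CPM in LPS, 199, 231 and 210 CPM in MP, and 148, 123 and 119 CPM in control. Here too no group overlapped its neighbour. Atf3 rose by 1.95 ± 0.09 in LPS+MP against control (adjusted p = 1.79e-11), by 1.07 ± 0.09 with LPS (adjusted p = 3.9e-08; 1.02 without LPS replicate 2) and by 1.24 ± 0.09 in LPS+MP against MP (adjusted p = 7.3e-09). With MP alone it stood at 0.72 ± 0.09 (adjusted p = 1.52e-05) and in LPS+MP against LPS at 0.88 ± 0.09 (adjusted p = 1.74e-06; 0.94 without LPS replicate 2).

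Jun (ENSMUSG00000052684, chromosome 4, 95049034 to 95052222), which encodes c-Jun, was the AP-1 member that was lower wherever LPS was given. It had 69.5, 72.7 and 73.2 CPM in LPS+MP, 67.5, 40.4 and 77.5 CPM in LPS, 102, 111 and 98.9 CPM in MP, and 106, 113 and 102 CPM in control. The 6 libraries with LPS lay below the 6 without it, MP overlapped control, and LPS+MP overlapped LPS. No change reached 2-fold: -0.83 ± 0.16 with LPS (adjusted p = 0.000337; -0.56 without LPS replicate 2), -0.57 ± 0.16 in LPS+MP against control (adjusted p = 0.00563) and -0.53 ± 0.16 in LPS+MP against MP (adjusted p = 0.0115). The LPS value passed 2-fold without LPS replicate 3 (-1.02). With median-ratio scaling the LPS+MP against MP value was -0.38 (adjusted p = 0.0551). MP against control gave -0.04 ± 0.16 (95% interval -0.38 to 0.30, adjusted p = 0.864), and LPS+MP against LPS 0.26 ± 0.16 (95% interval -0.08 to 0.61, adjusted p = 0.218), with -0.0098 without LPS replicate 2 and 0.45 without LPS replicate 3 (adjusted p = 0.0289).

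Ier2 (ENSMUSG00000053560, chromosome 8, 84661331 to 84662852), a small nuclear protein induced by growth factors, moved least. It had 62.3, 65.6 and 65.7 CPM in LPS+MP, 45.3, 37.9 and 56.0 CPM in LPS, 54.4, 64.2 and 62.0 CPM in MP, and 58.1, 60.8 and 63.3 CPM in control. LPS lay below control and below LPS+MP without overlap, and the other groups overlapped. Its changes were -0.40 ± 0.11 with LPS (adjusted p = 0.00595; -0.26 without LPS replicate 2), 0.48 ± 0.11 in LPS+MP against LPS (adjusted p = 0.00364; 0.35 without LPS replicate 2) 0.09 ± 0.11 in LPS+MP against control (95% interval -0.15 to 0.33, adjusted p = 0.512) and -0.01 ± 0.11 with MP (95% interval -0.25 to 0.22, adjusted p = 0.935).

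Myc (ENSMUSG00000022346, chromosome 15, 61985391 to 61990374), the growth factor-induced regulator of ribosome and nucleotide synthesis genes, went the other way. It had 11.2, 13.9 and 15.1 CPM in LPS+MP, 18.7, 16.5 and 25.7 CPM in LPS, 11.2, 14.7 and 10.7 CPM in MP, and 28.8, 31.6 and 30.6 CPM in control. Control lay above all treated libraries, LPS came next, and MP and LPS+MP overlapped. Myc fell by 1.26 ± 0.16 with MP (adjusted p = 1.88e-05) and by 1.13 ± 0.16 in LPS+MP against control (adjusted p = 1.25e-05), a call that ended with quantile normalization (-0.91). With LPS alone the change was -0.58 ± 0.16 (adjusted p = 0.0049; -0.45 without LPS replicate 2), and LPS+MP against LPS gave -0.55 ± 0.16 (adjusted p = 0.0137; -0.68 without that library). The LPS+MP against LPS value was -0.44 without LPS+MP replicate 1 (adjusted p = 0.0751) and -0.38 without LPS replicate 3 (adjusted p = 0.0633). Fitted on the compared groups alone, its adjusted p was 0.0527. LPS+MP differed from MP by 0.13 ± 0.16 (95% interval -0.20 to 0.47, adjusted p = 0.498), and by 0.40 with quantile normalization (adjusted p = 0.0343).

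Whether MP acted differently in the presence of LPS was tested directly, as the MP effect with LPS (LPS+MP minus LPS) minus the MP effect without it (MP minus control). One member, Egr3, passed both thresholds downward (-1.27 ± 0.29, adjusted p = 0.00557; -1.32 without LPS replicate 2) and 0 passed upward, against 3.68% and 1.02% of all genes; 4 passed without the fold threshold, against 22%. With quantile normalization the Egr3 value was -0.96 (adjusted p = 0.0333), short of the fold threshold. Egr2 had -0.95 ± 0.32 (adjusted p = 0.0475), just under the p threshold, and was over it in 14 of 18 refits under the alternatives, up to 0.214 with quantile normalization (-0.54). Without LPS replicate 2 it was -1.26 (adjusted p = 0.000277). Myc had 0.71 ± 0.22 (adjusted p = 0.0331; 0.58 without LPS replicate 2), so that its MP effect was -0.55 with LPS and -1.26 without. Ier2 had 0.50 ± 0.16 (adjusted p = 0.0348; 0.37 without LPS replicate 2). The adjusted p was at 0.05 or over in 9 of 19 refits for Ier2 (up to 0.0929) and in 8 of 19 for Myc (up to 0.0859), and in 0 of 18 for Egr3. For Nr4a1 the MP effect was 2.15 with LPS and 2.07 without, a difference of 0.08 ± 0.29 with a 95% interval of -0.53 to 0.70 (-0.15 without LPS replicate 2). This value depends on the 1 added to CPM, since the Nr4a1 control mean was 1.54 CPM. With a pseudocount of 0.1 the difference was -0.39 (adjusted p = 0.417). By group means MP multiplied Nr4a1 by 4.38 with LPS and by 6.35 without. For Egr1 these were 2.60 and 2.10, a difference of 0.50 ± 0.29 with an interval of -0.11 to 1.10 (adjusted p = 0.233; 0.55 without LPS replicate 2, and 0.75 with an adjusted p of 0.0367 without LPS replicate 3). Fos, at -0.53 ± 0.21, had an adjusted p of 0.0847, and of 0.0230 without LPS replicate 2.

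**Figure D4:**
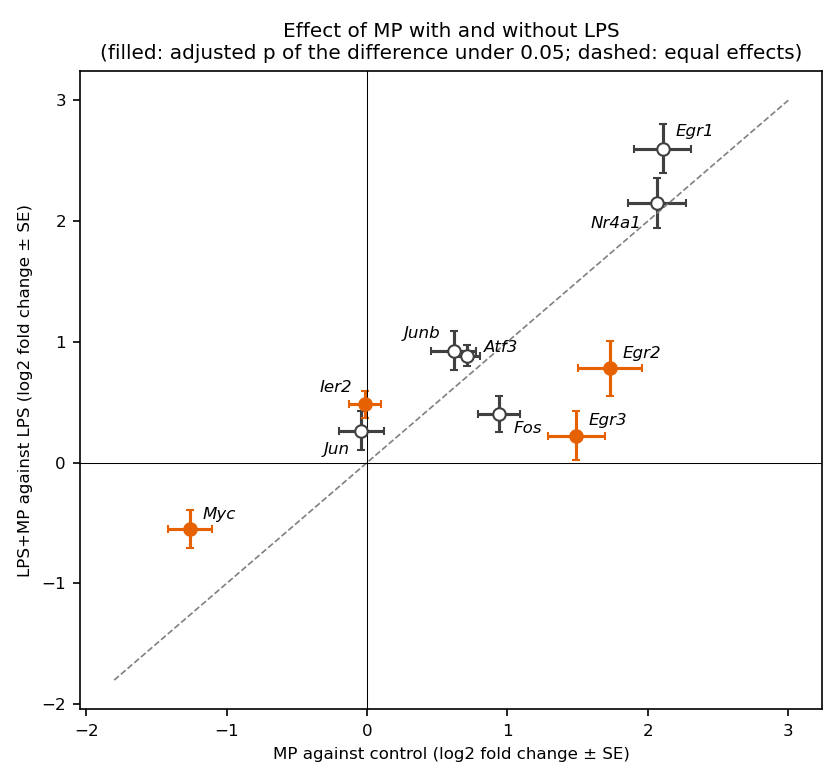
Effect of MP without LPS (x axis, MP against control) and with LPS (y axis, LPS+MP against LPS) on each gene, as log2 fold change with SE; the dashed line marks equal effects and filled points have an adjusted p of the difference under 0.05. Egr1 and Nr4a1 lie beyond 2 on both axes, while Egr3 lies at 0.22 with LPS and 1.49 without it. The log2(CPM + 1) scale understates changes of genes near 0 CPM, such as Nr4a1 on the x axis (control mean 1.54 CPM).

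The genes around these 10 were read from 7 lists of early genes, upstream activators, kinases, feedback inhibitors, MYC partners and targets, and decay factors. Of 28 other immediate early and AP-1 genes tested, 14 rose and 3 fell in LPS+MP against control (median log2 fold change 0.92, against -0.10 over all genes), 12 rose and 4 fell with LPS (0.12, against -0.08) and 2 rose and 2 fell with MP (0.07, against 0.02). In the same order, the shares of all genes that rose and fell were 8.52% and 12.3%, 8.3% and 8.05%, and 1.82% and 1.85%. They were 0.63% and 3.89% in LPS+MP against LPS, and 1.02% and 3.68% upward and downward for the interaction. Ier3, an apoptosis and NF-kB regulator, had 321 ± 3.54 CPM in LPS+MP, 217 ± 10.1 in LPS, 56.2 ± 4.69 in MP and 28.9 ± 6.29 in control (SD, n = 3). The AP-1 partner gene Fosl1 rose by 1.45 ± 0.29 with MP, and Fosb by 1.21 ± 0.19, at a mean of 1.85 CPM in MP and 0.240 CPM in control. The Maf gene, a large MAF factor of macrophages, fell by 1.56 ± 0.20 with MP, and Id3, an inhibitor of bHLH factors, by 1.16 ± 0.10. In LPS+MP against LPS 7 rose and 1 fell (0.54, against -0.05; 5 rose and 1 fell without LPS replicate 2), with Csrnp1 at 1.73 ± 0.14, Maff at 1.24 ± 0.13 and Fosb at 1.43 ± 0.19 upward and Maf at -1.55 ± 0.20 downward. For the interaction 5 were called upward (3 without LPS replicate 2) and 0 downward, with Id3 at 2.06 ± 0.14, Csrnp1 at 1.10 ± 0.19 and Maff at 1.09 ± 0.19; Maff came to 0.95 without LPS replicate 2 and was then not called. The Nr4a1 relative Nr4a3 was at 3.30 and Nr4a2 at 1.11 in LPS+MP against control, both called; with MP alone they were at 0.92 and 0.47 and not called. Egr4 was at -0.01 with MP and -1.23 with LPS, where it was called.

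**Figure D5:**
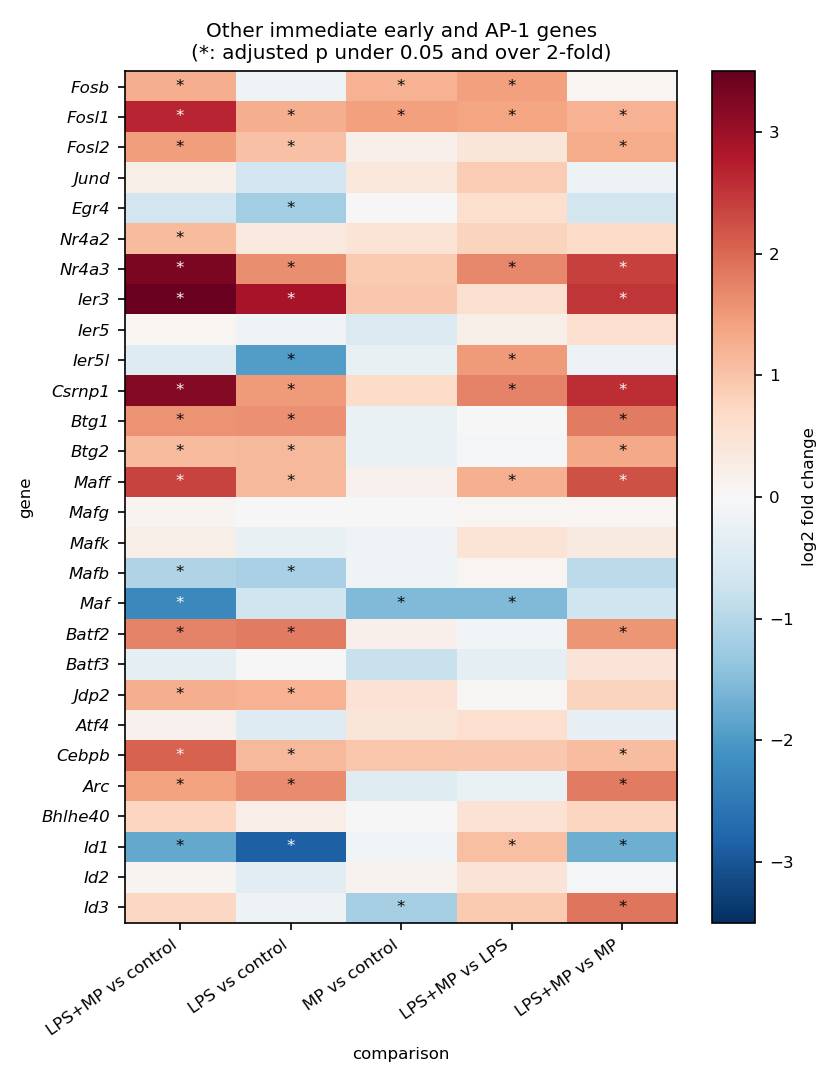
Log2 fold change (colour) of the 28 other immediate early and AP-1 genes (rows) in 5 comparisons (columns), with a star for genes past both thresholds. With MP alone 4 genes carry a star, Fosb, Fosl1, Maf and Id3, against 17 with LPS+MP against control.

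Transcripts of genes that act upstream of the 10 are counted beside the shares of all genes, of which 1.82% rose and 1.85% fell with MP, 8.3% and 8.05% with LPS, and 8.52% and 12.3% in LPS+MP against control. Of 22 SRF, CREB and ETS activators 0 rose and 1 fell with MP (Ets1, -1.76 ± 0.18; list median -0.01), 0 rose and 2 fell with LPS (Mef2c, -2.10 ± 0.14, and Mkl1, the SRF coactivator, -1.28 ± 0.11; median -0.07), and 1 rose and 2 fell in LPS+MP against control (median -0.15). Of 31 genes of the MAP kinase cascade 0 rose and 1 fell with MP (Map2k6, an activator of p38, -2.13 ± 0.16; median 0.00), 0 rose and 2 fell with LPS (median -0.17) and 1 rose and 3 fell with LPS+MP (median -0.08); Mapk14, p38 itself, was at -1.21 ± 0.07 there. Among 14 feedback genes of the MAP kinases and EGR co-repressors 0 were called with MP (median -0.02; Nab1, an EGR co-repressor, at 0.46 ± 0.09), 1 rose and 1 fell with LPS (median -0.05; 2 rose and 1 fell without LPS replicate 2) and 2 rose and 2 fell with LPS+MP (median 0.11). In LPS+MP against LPS 3 of these 14 rose (2 without LPS replicate 2), the G protein regulators Rgs2 (1.17 ± 0.10) and Rgs1 (1.26 ± 0.15) and the ERK inhibitor Spry4 (1.07 ± 0.17; 0.92 and not called without LPS replicate 2). Rgs2 was also the gene of this list that fell with LPS (-3.60 ± 0.10), and it fell in LPS+MP against control (-2.44 ± 0.10). Its mean was 134 CPM in control, 101 in MP, 10.1 in LPS and 24.15 in LPS+MP. Medians over all genes were 0.02, -0.08 and -0.10 in the first 3 comparisons. In LPS+MP against LPS 0.63% of all genes rose and 3.89% fell.

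The same shares of all genes apply to the decay factors and the MYC network. Of 18 mRNA decay factors 0 were called with MP (median -0.02), and 2 rose and 1 fell both with LPS (median -0.22) and with LPS+MP against control (median -0.16). Zfp36, which encodes tristetraprolin, a protein that removes AU-rich transcripts such as that of Fos, had 480.4 ± 23.9 CPM in LPS+MP, 246 ± 42.2 in LPS, 92.6 ± 2.44 in MP and 61.5 ± 4.01 in control. Zc3h12a also rose, by 2.53 ± 0.14 with LPS and by 3.26 ± 0.14 in LPS+MP against control. The decay factor that fell was Zfp36l2, at -1.68 ± 0.07 with LPS and -2.12 ± 0.07 in LPS+MP against control. Among 13 MYC partners 0 rose and 2 fell with MP, the MAX-binding repressor genes Mxd4 (-1.16 ± 0.14) and Mxd3 (-1.39 ± 0.19), with a median of 0.03; 1 rose (Mxd1, 2.65 ± 0.11) and 2 fell with LPS (median -0.21), and 2 rose and 3 fell with LPS+MP (median -0.31). Of 27 MYC targets of growth 1 rose and 0 fell with MP (median 0.21), beside 1.82% and 1.85% of all genes. Myc itself fell there, and a link between Myc and these genes was not tested. The gene that rose was Odc1, which encodes the polyamine synthesis enzyme ornithine decarboxylase, at 1145 ± 101 CPM in LPS+MP, 374 ± 28.1 in LPS, 397 ± 54.0 in MP and 165 ± 5.39 in control. With LPS 2 of the 27 rose and 3 fell (median -0.30; 2 and 2 without LPS replicate 2), and with LPS+MP 1 rose and 4 fell (median -0.20), the replication clamp gene Pcna by 2.17 ± 0.10.

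Levels were compared between members only after division by the length of the listed transcript, which was known for 9 of the 10 (all but Jun). Mean CPM per kb in LPS+MP was 269 for Junb, 254 for Atf3, 55.0 for Nr4a1, 42.4 for Ier2, 35.8 for Egr1, 21.1 for Fos, 5.73 for Myc, 1.52 for Egr2 and 0.751 for Egr3. In control the same quantity was 65.6 for Atf3, 46.0 for Junb, 39.9 for Ier2, 13.0 for Myc, 5.45 for Fos, 1.91 for Egr1, 0.622 for Nr4a1, 0.398 for Egr3 and 0.315 for Egr2. Nr4a1 stood below Ier2, Myc, Fos and Egr1 in control and above these 4 in LPS+MP.

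Genes of most similar pattern were found by the root mean square difference of centred log2(CPM + 1) over the 12 libraries, as a description with no test. For Nr4a1 they were the chemokine gene Cxcl2 (0.40), Procr (0.575) and the chemokine gene Ccl3 (0.603), beside the gene's own root mean square deviation of 2.12. For Egr1 they were Odc1 (0.546), the polo-like kinase gene Plk3 (0.579) and Fndc9 (0.589), beside 1.49. Cxcl2 had 2419 CPM in LPS+MP, 815 in LPS, 214 in MP and 36.5 in control on average. Egr3 lay nearest to Epb4.1l3 (0.250), Trib3 (0.263), a pseudokinase gene of the amino acid stress response, and Dusp18 (0.267), and Egr2 to Cacnb1 (0.213), Soat2 (0.270) and Slc25a33 (0.281). Trib3 averaged 125 CPM in LPS+MP, 85.5 in LPS, 243 in MP and 75.1 in control. Fos lay nearest to the ferritin heavy chain gene Fth1 (0.148), Junb to Agrn (0.167), Atf3 to Wsb1 (0.122) and Myc to Emilin2 (0.150), the last with 458 CPM in LPS+MP, 747 in LPS, 405 in MP and 1057 in control. Jun lay nearest to Sergef (0.076) and Ier2 to Snrpc (0.091), beside deviations of 0.408 for Jun and 0.226 for Ier2.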

How the data were processed

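The submitters' processing notes name edgeR, DESeq2, HTSeq, TopHat2 2.1.1, Trimmomatic 0.36 and FastQC 11.5 without saying what each did; no source used here gives the build or the annotation. Gene coordinates are those of the deposited table, and 11651 of 11655 transcripts matched by ID overlapped their GENCODE M21 (GRCm38) position. The deposited values are headed RPKM but were read as CPM from the values: the mean over libraries tracked the deposited log2 column (headed logCPM, per the file headers) with an SD of 0.20, against 0.99 if multiplied by transcript length. Low values were whole multiples of 1 step in 99.6% of cases in LPS replicate 3 and MP replicate 1 and in 13.7% to 83.2% in the others (tolerance 0.05 of a step), so no count model was fitted.

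The test was planned for RPKM and was kept for CPM. Genes reaching 1 CPM in at least 3 libraries (11745) were fitted as log2(CPM + 1) with limma 3.58.1 (R 4.3.3), 4 group means, all 12 libraries, a variance trend and Benjamini-Hochberg adjustment over all genes of each comparison. The procedure was tested on simulated data. Overlapping and antisense genes carry the uncertainty of an unstated strand setting. All 10 members were named. List genes were drawn from up to 4 called genes per list and comparison by smallest adjusted p (otherwise the 2 of highest level). Similar genes were drawn from the 3 of most similar pattern per member. Not every gene that this rule allows was named, and some were passed over for genes of larger adjusted p. Nr4a2, Nr4a3 and Egr4 were named outside this rule, as relatives of members, after their values were seen. Members and lists were chosen with earlier results of these data known. Promoter sequences are from RefSeq (GRCm38.p6), matched by symbol for 6 members, at the start nearest to the deposited one. The lists without LPS replicate 2 were counted as an alternative chosen after seeing the data. Replicate numbers were checked for pairing, and alternatives are given at the end.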

Additional observations from a re-analysis of the deposited data

Results flagged for a closer look

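In 4 members the effect of MP differed between cells with and without LPS by the test of the difference itself (adjusted p under 0.05). Egr3 differed by -1.27 and Egr2 by -0.95 (log2), with a smaller effect of MP under LPS. Myc differed by 0.71, with an MP effect nearer to 0 under LPS, and Ier2 by 0.50. All 4 differences kept their direction under every alternative in which the gene was tested (Egr2 and Egr3 were not tested with the minimum of 5 CPM), but not all kept the p threshold. The adjusted p of Egr3 stayed under 0.05 in 18 of 18 refits. That of Egr2 did so in 4 of 18, with the highest, 0.214, at -0.54 with quantile normalization, that of Myc in 11 of 19 and that of Ier2 in 10 of 19. The LPS libraries of these genes were spread more widely than the control libraries, and the part of LPS replicate 2 in the results is given by the values without it: -1.32 for Egr3, -1.26 for Egr2, 0.58 for Myc and 0.37 for Ier2.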

How the results depend on the processing

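Of 1236 member values recomputed under the alternatives, 1189 kept their direction and their call (both thresholds passed together, or not), 5 lost the call, 34 gained it (19 of them without the fold threshold) and 8 changed sign. Many of the 1236 fold changes could not move. Leaving out a library of a group not compared keeps the fold change as it was. So do the replicate block, the fit without the filter or variance trend, and the fit on the compared groups alone. The count of 1189 is therefore no measure of stability. The adjusted p alone crossed 0.05 in 55 of the 1236, lost in 49 and gained in 6. Without the fold threshold the members passing were 8 in MP against control, 9 in LPS against control, 8 in LPS+MP against LPS and 4 for the interaction. Over all genes that setting gave 4570 in MP, 7297 in LPS and 7786 in LPS+MP against control, 4138 in LPS+MP against LPS, 6527 in LPS+MP against MP and 2583 for the interaction, in place of 431, 1920, 2448, 531, 1597 and 552. A pseudocount of 0.1 gave 807 genes in LPS+MP against LPS, 2 members and 719 genes in all for the interaction, and a Nr4a1 interaction of -0.39. With a minimum of 5 CPM 3 members were called in MP against control and 0 for the interaction, because Egr2 and Egr3 were no longer tested. Over all genes that minimum gave 373 in MP against control and 469 for the interaction. Quantile normalization gave 0 members for the interaction, Egr3 at -0.035 in LPS against control and Egr2 at 0.048 in LPS+MP against MP; it moved the median of all genes to 0.01 in LPS+MP against control and to -0.02 in LPS+MP against MP, and the share of calls that rose to 27.4% in LPS+MP against LPS (13.9% before) and to 38.7% for the interaction (21.7% before). Over all genes quantile normalization gave 499 for the interaction. Median-ratio scaling moved the LPS+MP against MP median to -0.01. The cause of these shifts was not tested. Leaving out 1 library at a time, 5 to 6 members were called in MP and in LPS against control, 7 in LPS+MP against control, 2 to 4 in LPS+MP against LPS (4 without LPS replicate 3), 4 to 5 in LPS+MP against MP, and 1 to 2 for the interaction (2 without LPS replicate 2). Over all genes the counts in the same order were 400 to 486, 1891 to 2037, 2397 to 2460, 520 to 583, 1551 to 1616 and 524 to 615. Nr4a1's interaction then ran from -0.15 (without LPS replicate 2) to 0.33, Jun in LPS+MP against LPS from -0.0098 (without LPS replicate 2) to 0.45, and Ier2 in MP against control from -0.062 to 0.055. Fos passed 2-fold in MP against control without MP replicate 3 (1.09) or control replicate 2 (1.03). The interaction was not fitted on the compared groups alone, as it uses all 4.

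Libraries of the same number did not visibly deviate together (median residual correlation 0.018 over 18 pairs, and 3 of 12 libraries closest to their own number). No pairing was detected, though so few libraries cannot show that there was none. The replicate block left the counts at 431, 1920, 2448, 531, 1597 and 552 genes, since a balanced block leaves each fold change as it was and the fold threshold sets nearly all calls; for the interaction 549 genes were called in both fits. Without the fold threshold the block gave 4491 genes in MP against control, in place of 4570. Every member kept its call under the block; the adjusted p of Fos in LPS+MP against LPS, whose change is under 2-fold, was 0.0572 there and 0.0468 without it. Low values were whole multiples of 0.0247 CPM in LPS replicate 3 and of 0.0248 CPM in MP replicate 1 (99.6% of cases in each). Other libraries fitted a single step less well, and depth is otherwise unknown. That limits what can be read from Egr2 and Egr3 near 1 CPM.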
